A study of Mus musculus with 4 samples.

Results

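Cytochrome c oxidase, the last enzyme of the mitochondrial respiratory chain, is described here through 9 genes for its nuclear-encoded subunits that come as isoforms, out of 24062 genes counted in embryonic mouse retina. They are Cox4i1 and Cox4i2, Cox6a1 and Cox6a2, Cox6b1 and Cox6b2, Cox7a2 and Cox7a1, and Cox8a. In each of the 4 pairs the first isoform named is widely expressed and the second is restricted to certain tissues, and Cox8a is a widely expressed isoform listed without its partner. The genes were chosen with the difference between the genotypes already known, so their own fold changes are given as a description. Where the text says that one of them was past the thresholds used for all genes, this places it among those genes and is not a test of it.

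RNA-seq was done at E13.5 on retinas of a C57BL/6 129 mixed strain, with 2 libraries labelled wildtype and 2 labelled Nrf1-CKO. In the Nrf1-CKO animals, written Nrf1 f/f;Six3-Cre, the floxed exon of Nrf1 is removed by Cre recombinase under Six3 regulatory sequence, which is active in retinal progenitor cells. Each library was made from retinas of several littermates pooled by genotype, so the lens, vessels and other cells around the retina are part of the sample wherever they came with the dissection, as are cells in which Cre was not active. Nrf1 encodes nuclear respiratory factor 1, a transcription factor that activates many nuclear genes for mitochondrial proteins.

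Cytochrome c oxidase takes electrons from cytochrome c, passes them to oxygen and pumps protons across the inner mitochondrial membrane. Its catalytic core is encoded by mitochondrial DNA, which was not analysed here, and the subunits around the core are encoded in the nucleus. COX4 joins the core early in assembly, and its second isoform is known from lung, from cells of the vessel wall and as a target of hypoxia signalling. COX6A2, COX7A1 and COX8B are the isoforms of heart and skeletal muscle, COX6B2 is known from testis, and NRF1 and the ETS factor GABP are textbook activators of the widely expressed isoforms.

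The letters before the start sites are shown because the question of the experiment is what is lost with Nrf1, whose protein binds a palindrome rich in CG. RefSeq sequence of GRCm38.p6 was at hand for 6 of the 9 genes and not for Cox4i1, Cox4i2 and Cox6a2. The 250 bases before each start were searched on both strands for CGCATGCG, the strict core of the NRF1 motif, for the looser GCGCANGCG, which overlaps it, and for CCGGAAG, an ETS motif that GABP can bind. Of 32851 promoters of the same length, 1.55% held the strict core, 5.16% the looser form and 6.91% the ETS motif. The 3 windows below are those of a gene with all of these matches, a gene with the ETS match only, and a restricted isoform with none. They are Cox6a1 at chr5:115348959-115349208, Cox6b1 at chr7:30626115-30626364 and Cox6b2 at chr7:4753095-4753344, all on the minus strand and written 5′ to 3′ towards the start, with the matches in capitals.
Cox6a1: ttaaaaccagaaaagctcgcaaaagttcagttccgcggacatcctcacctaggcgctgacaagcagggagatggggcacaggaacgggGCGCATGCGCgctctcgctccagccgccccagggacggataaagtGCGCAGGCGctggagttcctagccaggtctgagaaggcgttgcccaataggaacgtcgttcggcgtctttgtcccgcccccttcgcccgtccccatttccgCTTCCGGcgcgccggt
Cox6b1: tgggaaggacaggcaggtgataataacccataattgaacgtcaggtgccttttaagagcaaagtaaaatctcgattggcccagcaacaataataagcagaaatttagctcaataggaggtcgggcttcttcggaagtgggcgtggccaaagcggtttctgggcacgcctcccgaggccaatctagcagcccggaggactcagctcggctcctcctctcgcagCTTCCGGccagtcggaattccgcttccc
Cox6b2: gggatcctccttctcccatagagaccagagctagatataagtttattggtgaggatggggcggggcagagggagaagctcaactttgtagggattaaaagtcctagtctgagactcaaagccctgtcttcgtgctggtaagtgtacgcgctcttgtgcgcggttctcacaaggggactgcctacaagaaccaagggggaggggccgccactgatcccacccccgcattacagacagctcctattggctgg
In Cox6a1 the first run of capitals starts 162 bases before the start site and holds the strict core with 2 overlapping matches to the looser form, a further looser match lies at 117 bases, and the ETS motif, read on the other strand, lies at 16 bases. In Cox6b1 the ETS motif lies at 28 bases. These distances are to the RefSeq start. In the GENCODE models used for gene positions and lengths, both genes start farther upstream, and both ETS matches lie inside the gene. The windows of Cox6b2, Cox7a1, Cox7a2 and Cox8a held none of these letters. A match is a string of letters and not evidence of binding.

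Between 74577660 and 85933945 reads fell on genes per library, and 15762 genes passed the filter on low counts. The targeted gene Nrf1 was counted 9052 and 7789 times in wildtype against 8594 and 8284 times in Nrf1-CKO libraries, a count over the whole gene that cannot show the loss of a single exon. The libraries also differed in the levels of genes known from other tissues. Over 8 lens genes the summed level was 130 and 342 CPM (library-scaled counts, with TMM factors) in wildtype and 7127 and 2895 CPM in Nrf1-CKO libraries, and over 10 macrophage and microglia genes it was 82.4 and 76.4 against 248 and 298 CPM. Nrf1-CKO library 1 held the most reads of lens and of skeletal muscle genes, and some values below are also given without it.

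Levels of different genes were compared as RPKM, reads per kilobase of exon at the same library scaling, with the exons of each gene summed over its transcripts. In wildtype retina the 5 widely expressed isoforms lay far above the 4 restricted ones. Cox6b1, which encodes a subunit facing the intermembrane space, had the highest level at 220 ± 13.0 RPKM (SD, n = 2, as for all values that follow). Cox8a at 153 ± 5.63 RPKM, Cox6a1 at 146 ± 14.0 RPKM and Cox4i1 at 145 ± 8.44 RPKM followed, and the ranges of these 3 overlapped. Cox7a2, at 118 ± 1.70 RPKM, was the lowest of the widely expressed isoforms on this length. Cox4i2 came next with 29.6 ± 0.708 RPKM, well ahead of Cox6b2 with 5.45 ± 0.938 RPKM. Cox7a1 with 0.973 ± 0.556 RPKM and Cox6a2 with 0.0420 RPKM stood at the bottom. The place of Cox4i1 depended on the length used, because its annotated exons add up to 1550 bases while its longest transcript has 765. With longest transcripts it came first, at 294 RPKM. The lowest place changed as well, since Cox6a1 stood below Cox7a2 with longest transcripts, at 165 and 169 RPKM, and with coding lengths, at 305 and 448 RPKM.

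**Figure D1:**
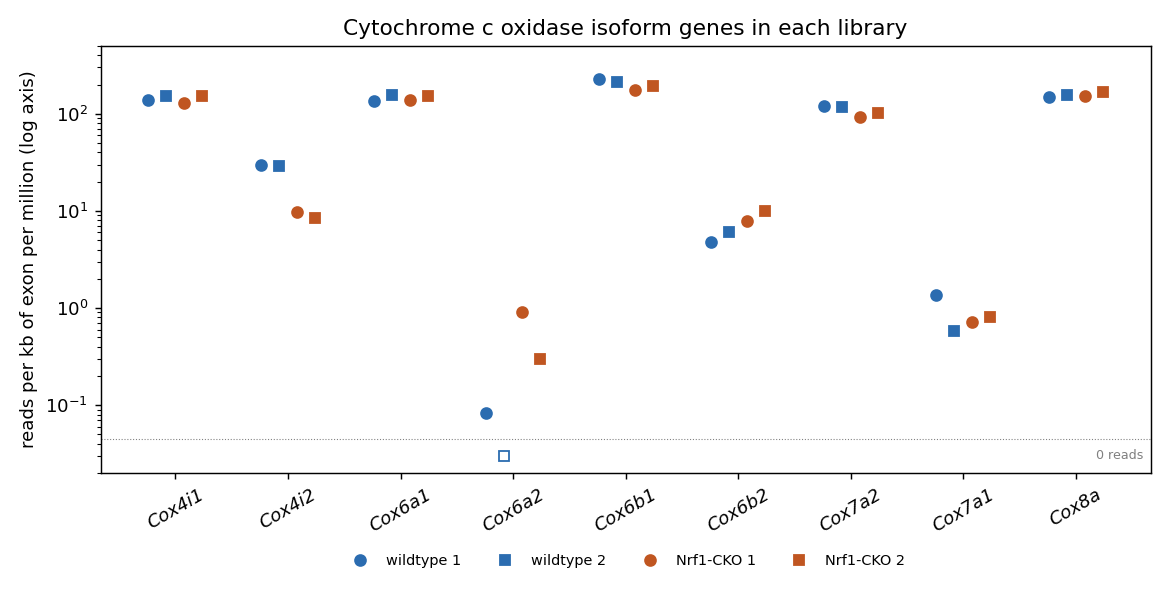
Level of each isoform gene in each library, in RPKM on a log axis; blue marks wildtype, orange Nrf1-CKO, circles replicate 1, squares replicate 2, and the open square a library with 0 reads. The widely expressed genes lie between 93.3 and 229 RPKM in all 4 libraries, and the restricted genes lie below 31 RPKM.

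In Nrf1-CKO retina the widely expressed isoforms stayed within 1.4-fold of wildtype, while Cox4i2 was lower and Cox6a2 and Cox6b2 were higher. Of the 9 genes, Cox4i2 was past the thresholds used for all genes (a 1.4-fold difference or more, with an adjusted p no higher than 0.2) in the lower direction, where 8.04% of all tested genes were called, and Cox6a2 and Cox6b2 in the higher direction, where 12.8% were called. Both Nrf1-CKO libraries lay below both wildtype libraries for 3 of the 9, beside 31.6% of all genes, and above them for 2 of the 9, beside 30.9%. Cox6a2 passed the filter on low counts only through its Nrf1-CKO libraries, where it was high. The genes were chosen on this contrast, so nothing is read from these counts. The fold changes of the 5 widely expressed isoforms ran from -0.28 to 0.07 on the log2 scale, while those of the 4 restricted ones ran from -1.69 to 3.72. The median over all tested genes was 0.0007.

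The COX4 pair changed its balance through Cox4i2. Cox4i2, a gene of 4 exons at chr2:152754173-152765037 on the plus strand of GRCm38, had 30.1 and 29.1 RPKM in wildtype against 9.79 and 8.48 RPKM in Nrf1-CKO libraries. The genotypes did not overlap, and the mutant mean was 30.9% ± 3.13 of the wildtype mean, a log2 fold change of -1.69 ± 0.12 (standard error from the edgeR fit over all genes, as below). In a bulk sample such as this, fewer cells that express a gene and less RNA per cell cannot be told apart. Its partner Cox4i1, the isoform of most tissues, at chr8:120668222-120674207, had 139 and 151 RPKM in wildtype and 130 and 151 RPKM in Nrf1-CKO libraries. These values overlapped, with a log2 fold change of -0.05 ± 0.09. Exons of Cox4i1 overlap those of Emc8 on the opposite strand, with 8.26% of its 100-base windows found in both transcripts, and Emc8 had 6600 to 7426 reads per library.

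Expressed as a share of the pair in reads per kilobase, Cox4i2 made up 17.8% and 16.1% in wildtype and 7.02% and 5.32% in Nrf1-CKO libraries. This share is taken within a library and so does not depend on how libraries are scaled to each other. The log2 ratio of Cox4i2 to Cox4i1 was lower by 1.65 on average in the mutant, since it went from -2.29 ± 0.12 to -3.94 ± 0.30. The share itself depends on the length given to Cox4i1. With longest transcripts the wildtype share was 9.78% and with coding lengths 9.26%, while the difference in log2 ratio does not change with length. With any single library left out, that difference stayed between -1.86 and -1.43.

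**Figure D2:**
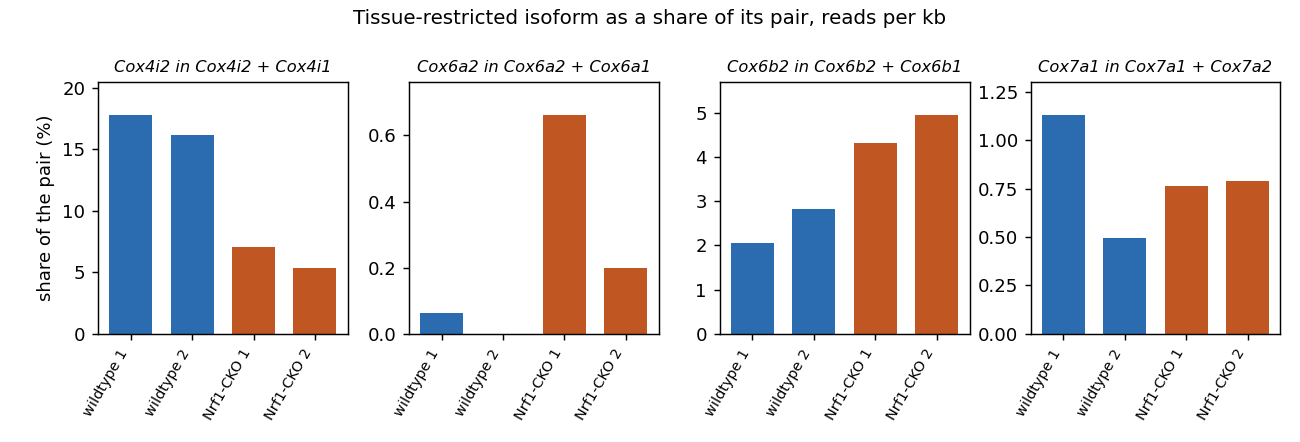
Share of the tissue-restricted isoform in its pair in each library, in percent of the pair's reads per kilobase; each panel has its own axis from 0, blue bars are wildtype and orange bars Nrf1-CKO libraries. The mean share of Cox4i2 is 17.0% in wildtype and 6.17% in Nrf1-CKO, that of Cox6b2 is 2.43% and 4.63%, that of Cox6a2 stays under 1% and that of Cox7a1 overlaps between genotypes.

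The COX6B pair shifted the other way, by a smaller amount. Cox6b2, with 3 exons at chr7:4751792-4753094 on the minus strand, had 4.78 and 6.11 RPKM in wildtype and 7.85 and 10.04 RPKM in Nrf1-CKO libraries. Both mutant values lay above both wildtype values, and the log2 fold change was 0.72 ± 0.18. On the log2 values deposited by the authors the difference was 0.43, under 1.4-fold. Cox6b1, at chr7:30616861-30626151 on the minus strand, had 229 and 210 RPKM in wildtype and 174 and 192 RPKM in Nrf1-CKO libraries. The mutant libraries were both lower, at 83.5% ± 5.87 of the wildtype mean, a log2 fold change of -0.26 ± 0.09 that is under 1.4-fold. Cox6b2 therefore made up 2.05% and 2.82% of the pair in wildtype and 4.31% and 4.96% in Nrf1-CKO libraries, and the log2 ratio of the isoforms differed by 0.98 between the genotypes. Leaving out single libraries gave differences from 0.74 to 1.21.

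The COX6A pair rested almost wholly on its widely expressed isoform. Cox6a1, the gene with the NRF1 and ETS letters shown above, had 136 and 156 RPKM in wildtype and 138 and 152 RPKM in Nrf1-CKO libraries. These values overlapped, and the log2 fold change was -0.01 ± 0.09. Cox6a2, the isoform of striated muscle, lies at chr7:128205435-128206387 on the minus strand and was counted 5 and 0 times in wildtype against 52 and 17 times in Nrf1-CKO libraries. A count of 0 allows up to 3 reads, or 0.0404 CPM at the depth of wildtype library 2. The mutant libraries were both higher, with a fitted log2 fold change of 3.72 ± 1.13 whose size depends on the library at 0. Without Nrf1-CKO library 1 it was 2.72, and without wildtype library 2, the library at 0, it was 2.83. Without Nrf1-CKO library 2 it was 4.31, and without wildtype library 1 it was 8.06. With at least 10 counts required in every library, Cox6a2 was not tested. On the deposited log2 values the difference was 0.39. Even so, Cox6a2 made up no more than 0.661% of its pair in any library. Its exons overlap Itgad on the opposite strand, which had 0 and 0 reads in wildtype and 1 and 8 reads in Nrf1-CKO libraries. The use of strand in counting is not given in the sources used here.

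In the COX7A pair the widely expressed isoform was modestly lower and the restricted isoform too low to place. Cox7a2, at chr9:79755361-79759878 on the minus strand, had 119 and 117 RPKM in wildtype against 93.3 and 102 RPKM in Nrf1-CKO libraries. The genotypes did not overlap, the mutant mean was 82.6% ± 5.06 of wildtype, and the log2 fold change of -0.28 ± 0.08 was under 1.4-fold. Cox7a1, a heart and skeletal muscle isoform at chr7:30184144-30186078, had 64 and 23 reads in wildtype and 32 and 36 reads in Nrf1-CKO libraries. The wildtype libraries lay on either side of the mutant ones, and the log2 fold change of -0.35 ± 0.61 changed sign when wildtype library 1 was left out, to 0.41. The share of Cox7a1 in the pair was between 0.493% and 1.13% in the 4 libraries.

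Cox8a, at chr19:7215153-7217616 on the minus strand, encodes a small subunit of the inner membrane. It had 149 and 157 RPKM in wildtype and 154 and 166 RPKM in Nrf1-CKO libraries, with a log2 fold change of 0.07 ± 0.08 and overlapping values. Its muscle partner Cox8b and the further isoform Cox8c had 0 reads in all 4 libraries, which allows up to 3 reads per library.

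Summed over the widely expressed isoforms, the level was 772 and 791 RPKM in wildtype and 690 and 763 RPKM in Nrf1-CKO libraries. The 4 restricted isoforms together had 36.3 and 35.7 RPKM in wildtype and 19.3 and 19.6 RPKM in Nrf1-CKO libraries. Cox4i2 carried most of the restricted sum in wildtype. Without it, the sum was 6.23 and 6.69 RPKM in wildtype and 9.49 and 11.2 RPKM in Nrf1-CKO libraries, and so it lay on the other side.

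A pair beside those above showed values like those of COX4. Ndufa4 encodes a subunit now assigned to cytochrome c oxidase, and Ndufa4l2 is its paralogue, known as a target of hypoxia signalling. Ndufa4l2 is not among the 9 genes, but its list was also chosen with earlier results of these data known. It had 1412 and 1268 reads in wildtype and 438 and 370 reads in Nrf1-CKO libraries. Its log2 fold change was -1.77 ± 0.14 (adjusted p = 0.000109, edgeR's quasi-likelihood test with Benjamini-Hochberg adjustment, as in all tests below). Its exons overlap Shmt2 on the opposite strand, and Shmt2 was also lower, with a log2 fold change of -0.72 (adjusted p = 0.00034, edgeR). Ndufa4 had a log2 fold change of -0.21 ± 0.08 (adjusted p = 0.0782, edgeR), under 1.4-fold. Ndufa4l2 made up 13.0% and 13.9% of its pair in wildtype and 5.56% and 4.50% in Nrf1-CKO libraries, against 17.8% and 16.1% and then 7.02% and 5.32% for Cox4i2. Of the cytochrome c genes, Cycs had a log2 fold change of 0.03 ± 0.18, with 24.7% of its windows shared with other genes, and the testis form Cyct had 1 read in all libraries together.

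The other subunits stayed within 1.4-fold of wildtype. Of 7 further genes, Cox5a, Cox5b, Cox6c, Cox7b, Cox7b2, Cox7c and Ndufa4, 6 were tested, 0 were called and 2 had an unadjusted p under 0.05, both lower, where 8.04% of all tested genes were called lower and 12.8% higher, so a count of 0 in 6 genes says little by itself. DESeq2 and limma also called 0 of them, and each gave 2 with an unadjusted p under 0.05. Their log2 fold changes ran from -0.24 in Cox6c (adjusted p = 0.0724, edgeR) to 0.22 in Cox7c (adjusted p = 0.307, edgeR), with a median of -0.19. Cox7c shares 19.7% of its windows with Gm10012 and Gm12338, so its count is uncertain. Cox7b2, a testis gene, had 1 read in all. Cox7a2l, a relative of the COX7A isoforms found in respiratory supercomplexes, had a log2 fold change of -0.12 (adjusted p = 0.273, edgeR). The widely expressed isoforms, at -0.28 to 0.07, fell in nearly the same range as these subunits.

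Assembly factors insert copper and heme into the enzyme or hold its parts together as it is built. Of 25 such genes 24 were tested and 0 were called by edgeR, DESeq2 or limma, and 4 had an unadjusted p under 0.05 in edgeR, all of them lower. Their median log2 fold change was -0.11. The range went from -0.34 in Cox16, which acts in the assembly of the catalytic core (adjusted p = 0.0472, edgeR, under 1.4-fold), to 0.14 in Coa5 (adjusted p = 0.201, edgeR). Both mutant libraries lay below both wildtype libraries for 11 of the 24 tested and above them for 2, beside 31.6% and 30.9% of all tested genes. Of all tested genes 8.04% were called lower and 12.8% higher.

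**Figure D3:**
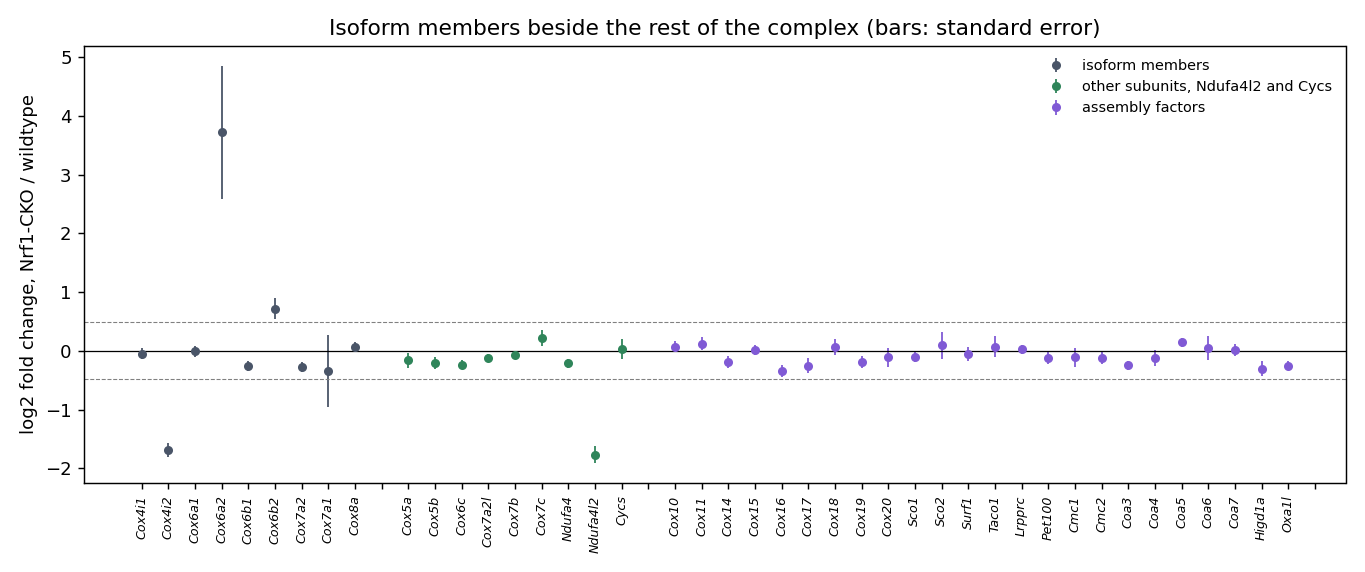
Log2 fold change of Nrf1-CKO over wildtype with its standard error for the isoform genes (grey), the other subunits with Ndufa4l2 and Cycs (green) and 24 assembly factors (purple); dashed lines mark 1.4-fold. Cox4i2 at -1.69 and Ndufa4l2 at -1.77 lie below the lower line, Cox6b2 at 0.72 and Cox6a2 at 3.72 above the upper line, and the rest lie between the lines.

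Genes whose levels follow those of Cox4i2 most closely over the 4 libraries were sought among 11325 genes with a mean of at least 5 CPM, by the root mean square difference of their centred log2 CPM. The nearest 5 were Slc18a2, a vesicular monoamine transporter, at 0.0418, Rrh, a light-sensitive opsin-like protein, at 0.0488, Ndufa4l2 at 0.0516, Tmem169 at 0.0706 and Sst, the peptide somatostatin, at 0.0716. Slc18a2 had 31.2 and 30.8 CPM in wildtype and 11.04 and 8.87 CPM in Nrf1-CKO libraries, beside 23.7 and 22.9 CPM and then 7.72 and 6.68 CPM for Cox4i2. With 4 libraries that fall into 2 genotypes, this likeness is mostly that of a fold change, and it is given as a description.

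Cox4i2 is known from mural cells of vessels, most of whose marker genes rose. Of 12 mural cell genes 11 were tested, of which 9 rose and 1 fell, with a median log2 fold change of 1.22, beside 12.8% and 8.04% of all tested genes. Des, counted among the 9, is also in the list of skeletal muscle genes. On the deposited log2 values limma called 7 higher and 1 lower, with a median of 0.61. Without Nrf1-CKO library 1 the median in the edgeR fit was 0.94. The summed level of the 12 genes was 211 and 215 CPM in wildtype and 369 and 359 CPM in Nrf1-CKO libraries. Most of this sum was Notch3, with 141 and 155 CPM in wildtype and 237 and 228 CPM in Nrf1-CKO libraries. Acta2, a smooth muscle actin, rose by 1.94 on the log2 scale (adjusted p = 0.00173, edgeR) and Cspg4, a pericyte proteoglycan, by 1.73 (adjusted p = 0.000152, edgeR), while Vtn fell by 1.23 (adjusted p = 0.00311, edgeR). Rgs5, a defining pericyte gene, had a log2 fold change of 0.41 with overlapping values, and Higd1b had 0 reads in all libraries. Of 10 endothelial genes 8 rose and 1 fell, with a median of 1.10, or 0.67 on the deposited values.

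Most markers of retinal ganglion cells and some genes of the hypoxia response were called lower, as Cox4i2 was. Of 17 genes of the hypoxia response 7 fell and 1 rose, with a median log2 fold change of -0.39, while limma on the deposited values called 5, all of them lower, with a median of -0.29. Without Nrf1-CKO library 1 the median in the edgeR fit was -0.59. The glycolytic gene Pfkp fell by 1.58 (adjusted p = 0.000104, edgeR), Ndrg1 by 1.36 (adjusted p = 0.000168, edgeR) and the mitophagy receptor gene Bnip3 by 0.90 (adjusted p = 0.00472, edgeR), all on the log2 scale. Egln3, an oxygen-sensing hydroxylase, rose by 0.73 (adjusted p = 0.0372, edgeR), and Vegfa had a log2 fold change of -0.06. Of 9 markers of retinal ganglion cells 8 fell, with a median of -1.68 and summed levels of 1649 and 1865 CPM in wildtype and 650 and 510 CPM in Nrf1-CKO libraries. Of 11 progenitor markers 2 fell, Hes5 and Fgf15, with a median of -0.10. Among all tested genes 8.04% were called lower and 12.8% higher, which bears most on the small progenitor count. The part of any of these groups in the value of Cox4i2 was not tested.

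Skeletal muscle genes were higher beside Cox6a2. Of 15 such genes 13 were tested and 12 were called higher, beside 12.8% of all tested genes. The median log2 fold change of the 13 was 2.46, and in 10 the mutant libraries did not overlap the wildtype ones. The size of these values rests on Nrf1-CKO library 1, since without it the median over 14 genes tested was 0.87. On the deposited log2 values limma called 9 of 13, with a median of 0.62. The summed level of the 15 genes was 45.9 and 33.6 CPM in wildtype and 340 and 61.4 CPM in Nrf1-CKO libraries. Most of this sum was Ttn, with 26.6 and 24.8 CPM in wildtype and 213 and 35.4 CPM in Nrf1-CKO libraries. Cox6a2 was likewise higher in Nrf1-CKO library 1 than in library 2, with 0.626 and 0.205 CPM. Myh8, a myosin heavy chain of developing muscle, had 75 and 26 reads in wildtype and 781 and 105 reads in Nrf1-CKO libraries. Its log2 fold change was 3.12 (adjusted p = 0.0246, edgeR), and 1.06 without Nrf1-CKO library 1. Ckm, muscle creatine kinase, had 7 and 0 against 1 and 11 reads. Of 8 genes of the mesenchyme around the eye 6 were called higher, beside 12.8% of all tested genes. The median of the 8 was 0.76 on the log2 scale, and 0.73 without Nrf1-CKO library 1. On the deposited log2 values 3 were called, with a median of 0.44. The part of muscle tissue in the value of Cox6a2 was not tested.

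**Figure D4:**
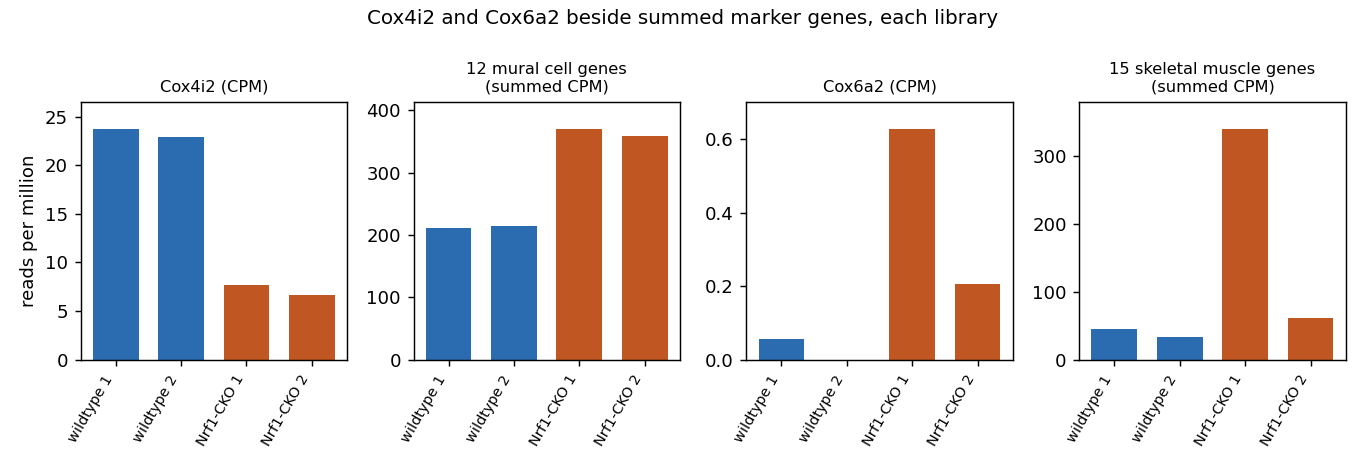
Level of Cox4i2, of 12 mural cell genes summed, of Cox6a2 and of 15 skeletal muscle genes summed in each library, in CPM, each panel with its own axis from 0; blue bars are wildtype and orange bars Nrf1-CKO. Cox4i2 is lower in both Nrf1-CKO libraries where the mural sum is higher, and Cox6a2 and the muscle sum are both highest in Nrf1-CKO library 1. Most of the mural sum is Notch3 and most of the muscle sum is Ttn.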

How the data were processed

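RNA was sequenced from 2 wildtype and 2 Nrf1-CKO pools of E13.5 retinas. Per the study's methods, the authors aligned reads to mm10 with TopHat (version 2.7.2 in the submitters' processing notes) and counted them with HTSeq, and they deposited whole-number counts per gene, used here for all fits. They also deposited normalized values on a log2 scale, whose making is not given in the sources used here; DESeq and limma are named in the notes without a role. The annotation release is not given either. Alignments that were not unique made up 54.6% to 58.0% of entries and, with the other summary rows, stayed out of library sizes. The study's own test, Cuffdiff, needs aligned reads and was not repeated.

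Counts were filtered with filterByExpr (minimum count 10), scaled by TMM factors and compared in edgeR 4.0.16 (R 4.3.3) by its quasi-likelihood test, with genotype as the only term. A gene was called at a fold of at least 1.4 and a Benjamini-Hochberg adjusted p of at most 0.2 over 15762 genes. The fit was tested on simulated data. RPKM used summed exons of the GENCODE annotation of GRCm38. With 2 libraries per genotype, errors and p-values measure only the spread between these pooled libraries, and floors cover counting error alone. Alternatives were other scaling factors and filters, DESeq2 1.42.0, limma 3.58.1 on the deposited log2 values, a stricter adjusted p, a replicate block, other gene lengths and each library left out. The genes and gene lists were chosen with earlier results of these data known. Besides the isoforms and subunits, the text names up to 4 called genes per list with large fold changes, genes needed to place a marker at or near 0, and the 5 nearest profiles to Cox4i2. Others (Cox16, Coa5, Emc8, Itgad, Shmt2, Egln3, Vegfa, Rgs5, Notch3 and Ttn) were named after their values were seen.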

Additional observations from a re-analysis of the deposited data

How the results depend on the processing

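The fold change of Cox4i2 kept its direction and stayed beyond 1.4-fold in every alternative run, from -1.80 to -1.18 on the log2 scale. On the deposited log2 values limma called 1 of the 9 isoform genes in place of 3, and over all genes 1668 in place of 3292, with 723 in place of 1268 lower and 945 in place of 2024 higher; the cause was not tested. The share of Cox4i2 in its wildtype pair was 9.78% with longest transcripts and 9.26% with coding lengths in place of 17.0%, and that of Cox6b2 was 3.96% and 3.13% in place of 2.43%, because the lengths alone were changed. The share of Cox7a1 was 0.431% with coding lengths in place of 0.812%. The difference in the log2 ratio of Cox7a1 to Cox7a2, 0.06 with all libraries, ran from -0.54 to 0.66 when each library was left out, and was -0.54 without wildtype replicate 2. The single call among the other subunits and their paralogues, Ndufa4l2, leaves 0 when genes that overlap another gene are left out, a choice made after seeing the data. Samples with the same replicate number did not deviate together (correlation -0.0025 over genes). With 2 libraries per genotype this cannot settle whether the numbers pair the samples. With the replicate number as a replicate block 3226 genes were called over all and 3 of the 9. Counts corrected for unique sequence were not run for want of a genome, and sequence windows shared between transcripts were counted in their place, which was chosen after seeing the data. The genes with few reads, Cox6a2 and Cox7a1, are those for which 2 libraries per genotype limit the values most.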
